A study of Sus scrofa with 23 samples.

Results

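The genes described here belong to the renin-angiotensin system, the hormone cascade that sets blood pressure and salt balance. They are 8 genes chosen by symbol: AGT, ACE, ENPEP, ATP6AP2, CTSG, AGTR1, AGTR2 and MAS1. Of these, 7 were found among the 26687 gene symbols with a quantified transcript, and CTSG, which was not matched under that symbol, was not analysed here. RNA was measured in kidney cortex of 23 newborn pigs, with 1 library per pig. The labels give 11 libraries as CF (CFTR-/-, both copies of the cystic fibrosis transmembrane conductance regulator gene disrupted), 6 as HET (CFTR+/-, a single copy disrupted) and 6 as WT (wild type), and HET and WT together are called non-CF below. The pigs were obtained by mating heterozygous parents and were studied within hours of birth, so the disrupted gene was carried in the whole animal, before and after birth, and not in the kidney alone. The labels give neither sex nor litter.

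In this cascade, angiotensinogen, the product of AGT, is cleaved to angiotensin I, and angiotensin-converting enzyme (ACE) shortens that peptide to angiotensin II. Angiotensin II constricts vessels and promotes sodium retention through the receptor AGTR1, while AGTR2, abundant in fetal tissues, and MAS1, which responds to a shorter angiotensin peptide, generally oppose those actions. The peptide is degraded by enzymes such as aminopeptidase A (ENPEP) on the proximal tubule brush border. The kidney makes these components itself, and the developing kidney needs them for its normal vessels and papilla.

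Library totals ran from 32901194 to 52952229 estimated counts, with medians of 43636194 in the libraries labelled CF, 47476392 in HET and 42709530 in WT. Levels are given as counts per 1000000 counts of the library (CPM), with library sizes scaled by the trimmed mean of M values (TMM), where the same gene is compared between libraries, and as transcripts per 1000000 transcripts (TPM), which allow for transcript length, where genes are compared with each other. A floor of 3 counts corresponded to 0.0567 to 0.0912 per 1000000 counts of the unscaled library totals, before TMM, and such floors cover counting error only. Fold changes are log2 values from edgeR, with 95% confidence intervals, and a gene is called where its p adjusted over all 20921 genes tested was under 0.05.

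CFTR, the disrupted gene (gene 403154, chromosome 18, 28627717 to 28818209 on Sscrofa11.1, the build of all positions here), was looked at first, as a check of the labels. Its level was lowest at 12.5, median 20.7 and highest at 23.5 CPM in the 11 libraries labelled CF. In the 6 labelled HET it was 9.41, 12.1 and 17.5 CPM, and in the 6 labelled WT 1.27, 2.24 and 3.67 CPM. CFTR RNA was therefore higher, not lower, in the libraries labelled as carrying disrupted copies, with no overlap of WT with either other label and an overlap of CF with HET. It rose by a log2 fold change of 3.14 in CF against WT (2.75 to 3.52, edgeR adjusted p = 1.23e-10) and of 2.47 in HET against WT (2.07 to 2.87, adjusted p = 5.07e-08). CF against HET gave 0.66 (0.33 to 0.99, adjusted p = 0.190) and CF against non-CF 1.42 (0.69 to 2.15, adjusted p = 0.0654), neither called by edgeR and both called by DESeq2 (0.0194 and 0.0187). The CFTR medians thus rose with the number of disrupted copies given by the labels, and the reason was not tested. Groups are named below as the libraries are labelled, and every direction rests on those labels.

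The libraries also fell into sets by pig number. On the 2nd axis of a multidimensional scaling of all genes, pigs 1 to 6 and 12 to 18 lay between -0.804 and 0.012, and pigs 7 to 11 and 19 to 23 between 0.333 and 0.732. The first set holds 6 CF, 3 HET and 4 WT libraries and the second 5 CF, 3 HET and 2 WT, so each label occurs in both. What the numbers stand for is not given in the labels, and values within each set are given for some genes below.

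AGT (gene 100157073, chromosome 14, 59643030 to 59656835), the substrate of the cascade, made chiefly by the liver, was a low transcript in cortex. Its level was lowest at 2.79, median 4.01 and highest at 6.88 CPM in the libraries labelled CF, 3.62, 3.83 and 6.88 CPM in HET, and 3.44, 3.93 and 8.38 CPM in WT. The ranges overlapped, with 3 CF libraries, pigs 2, 3 and 8, below every HET and WT library, and in HET and WT a single library each, pig 21 and pig 17, stood above the rest of its label. CF against non-CF gave a log2 fold change of -0.01 (-0.37 to 0.35, edgeR adjusted p = 0.989), with 6 of 11 CF libraries above the non-CF median. Without pig 17, the WT library at 8.38 CPM, that value was 0.10.

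ACE (gene 613133, chromosome 12, 15394487 to 15414609), the endothelial and brush-border peptidase that forms angiotensin II and also degrades bradykinin, was lowest at 65.9, median 106 and highest at 177 CPM in CF. In HET it was 75.8, 98.3 and 109 CPM and in WT 71.3, 89.9 and 123 CPM. The CF range enclosed both others, and its top value, pig 9, stood clear of every other library. The log2 fold change of CF against non-CF was 0.18 (-0.09 to 0.44, adjusted p = 0.596), with 7 of 11 CF libraries above the non-CF median. Without pig 9 that value was 0.08. Pig number separated ACE more than label did, at 65.9, 81.2 and 127 CPM in the first set and 93.1, 109 and 177 CPM in the second.

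ENPEP (gene 397080, chromosome 8, 111765839 to 111858349), aminopeptidase A, which removes the first residue of angiotensin II, was lowest at 532, median 704 and highest at 999 CPM in CF. In HET it was 597, 783 and 1059 CPM and in WT 397, 636 and 867 CPM. The ranges overlapped, although the lowest libraries of all, pigs 12 and 16, were labelled WT and the highest, pigs 19 and 20, HET. CF against non-CF gave -0.03 (-0.30 to 0.24, adjusted p = 0.958). Over the alternatives this ENPEP value ran from -0.27 to 0.19, the latter in the first set alone. HET against WT gave 0.34 (-0.02 to 0.70, adjusted p = 0.644), with 5 of 6 HET libraries above the WT median.

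ENPEP, too, was higher in the set of pigs 7 to 11 and 19 to 23, at 608, 829 and 1059 CPM, than in the other set, at 397, 632 and 893 CPM. The summed TPM of 10 proximal tubule markers moved the same way, at 2726, 3098 and 3844 in the set of pigs 7 to 11 and 19 to 23 and 1997, 2454 and 3029 in the other. None of the 10 was under 0.1 TPM. The rise was not particular to these markers: median sums for loop of Henle and distal tubule (935, against 730) and podocytes (357, against 304) were also higher in pigs 7 to 11 and 19 to 23. So were those of progenitors, erythroid cells, neutrophils and mast cells, and macrophages and lymphocytes. Stroma (846, against 974), smooth muscle and mesangium, endothelium, collecting duct and adrenal cortex had lower medians there. In bulk cortex, more cells of a type and more RNA per cell cannot be told apart, and the part of the tubule markers in the ENPEP values was not tested.

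ATP6AP2 (gene 100514935, chromosome X, 36271154 to 36300240), the prorenin receptor and an accessory protein of the vacuolar proton pump, was lowest at 112, median 136 and highest at 181 CPM in CF. In HET it was 119, 146 and 180 CPM and in WT 90.8, 125 and 163 CPM. It had the smallest spread of the members, with a coefficient of variation of 16.3%, and its labels overlapped throughout. CF against non-CF was 0.00 (-0.20 to 0.20, adjusted p = 0.997). By pig number it was 90.8, 121 and 149 CPM in the first set and 128, 152 and 181 CPM in the second.

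AGTR1 (gene 100519976, chromosome 13, 88934873 to 88980317), the receptor for most known actions of angiotensin II, was lowest at 31.4, median 46.4 and highest at 63.7 CPM in CF. In HET it was 36.8, 42.3 and 54.4 CPM and in WT 35.4, 46.8 and 58.5 CPM. Both the lowest library, pig 9, and the highest, pig 5, were labelled CF. The log2 fold change of CF against non-CF was 0.09 (-0.13 to 0.30, adjusted p = 0.784), with 7 of 11 CF libraries above the non-CF median.

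The AGTR1 values ran in opposite directions in the number sets. In pigs 1 to 6 and 12 to 18, AGTR1 was 42.5, 53.0 and 63.7 CPM in the 6 CF libraries and 35.4, 40.5 and 54.4 CPM in the 7 non-CF libraries. In pigs 7 to 11 and 19 to 23 it was 31.4, 42.4 and 46.4 CPM in 5 CF libraries and 38.3, 49.1 and 58.5 CPM in 5 non-CF libraries. CF libraries thus sat toward the top of the first set and toward the bottom of the second, with overlap in each. Fitted within a set, AGTR1 gave 0.33 in the first and -0.23 in the second. The difference between the sets in CF against non-CF was -0.56 (-0.93 to -0.19, unadjusted edgeR p = 0.00493, adjusted p = 0.258) and did not pass the adjusted limit.

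AGTR2 (gene 733586, chromosome X, 95267709 to 95272237), the receptor of fetal mesenchyme, was lowest at 13.8, median 22.1 and highest at 29.2 CPM in CF. In HET it was 17.8, 22.3 and 28.2 CPM and in WT 19.2, 24.5 and 39.4 CPM. The highest library, pig 17, was labelled WT and the lowest, pig 9, CF, with the others overlapping between them. CF against non-CF was -0.14 (-0.40 to 0.12, adjusted p = 0.688) and CF against WT -0.24 (-0.55 to 0.07, adjusted p = 0.492). Leaving out pig 17 gave -0.06 and -0.09 in these comparisons. Fitted within a set, CF against non-CF of AGTR2 was 0.02 in the first and -0.36 (adjusted p = 0.155) in the second, and the test of that difference gave -0.39 (adjusted p = 0.576). Unlike ENPEP, AGTR2 was lower in the second number set, at 13.8, 19.9 and 26.2 CPM, than in the first, at 19.2, 24.6 and 39.4 CPM.

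MAS1 (gene 100522470, chromosome 1, 7527566 to 7542110), the receptor for the shortened angiotensin peptide, was low in every library and did not pass the filter on low counts. It had between 1 and 18 counts per library, with medians of 0.115 CPM in CF, 0.116 in HET and 0.129 in WT. The highest library, at 18 counts, was HET pig 19. No fold change of MAS1 is given, and a Mann-Whitney U test of CPM between CF and non-CF gave an exact p of 0.833.

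**Figure D1:**
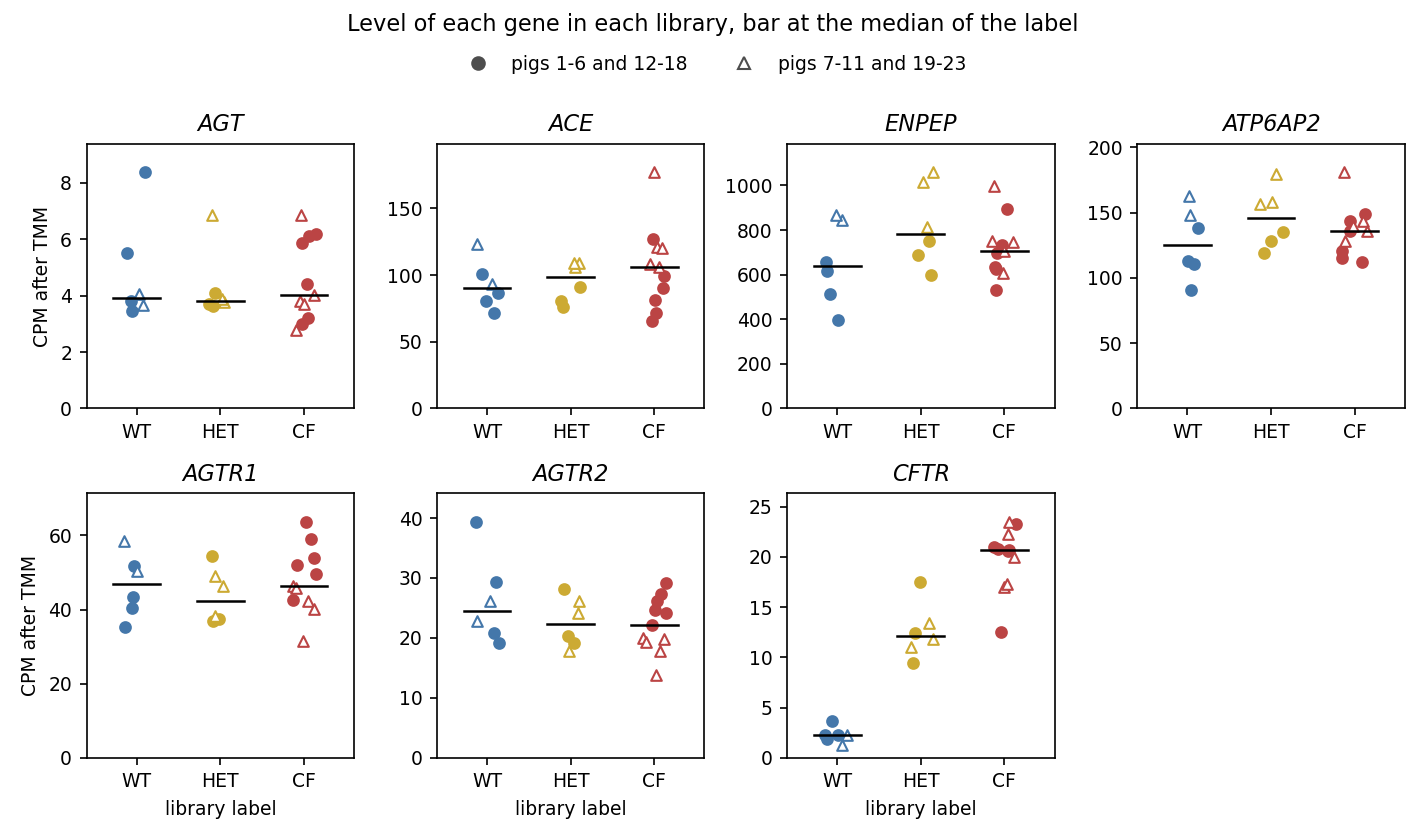
CPM after TMM of AGT, ACE, ENPEP, ATP6AP2, AGTR1, AGTR2 and CFTR in each of 23 libraries (points), with a bar at the median of each label and filled or open points for the sets of pig numbers. CFTR is the gene whose WT libraries, between 1.27 and 3.67 CPM, stand apart from the other labels, while the labels overlap for the rest.

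On the TPM scale, ENPEP was the most abundant of these genes, at a median of 219 TPM over all libraries, and ranked 254 of the 20921 genes tested. ATP6AP2 followed at 73.1 TPM, then ACE at 25.8, AGTR1 at 20.5, AGTR2 at 8.12, AGT at 1.95 and MAS1 at 0.0692 TPM. Most steps in this order held in each library: ENPEP was above ATP6AP2, ATP6AP2 above ACE, AGTR1 above AGTR2, AGTR2 above AGT and AGT above MAS1 in 23 of 23. ACE was above AGTR1 in 20 of 23, so these neighbours were not separated beyond their spread. The substrate AGT ranked 13964, far below ACE and ENPEP.

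The angiotensin receptors were both present, with AGTR1 above AGTR2 in TPM in every library. The AGTR1 to AGTR2 ratio in TPM was lowest at 2.30, median 2.93 and highest at 3.17 in CF, 1.88, 2.47 and 3.56 in HET, and 1.69, 2.33 and 3.30 in WT. Although the CF median was the highest, its range lay within those of the other labels.

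**Figure D2:**
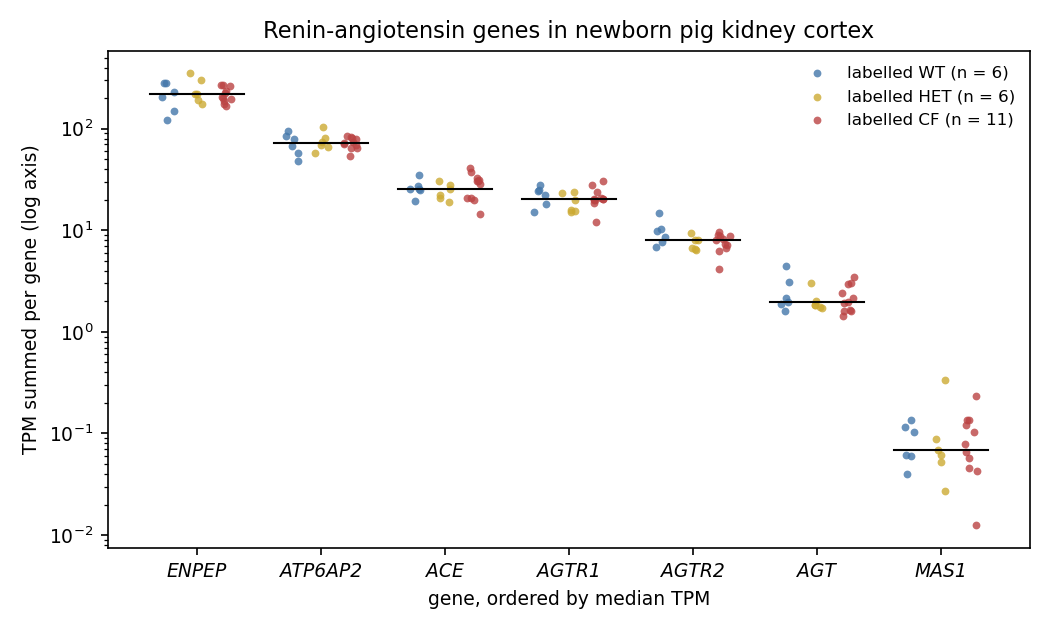
TPM summed per gene, on a log axis, of 7 genes of the renin-angiotensin system ordered by median, with 1 point per library (11 labelled CF, 6 HET, 6 WT) and a bar at the median of 23. ENPEP, at a median of 219 TPM, lies above the others in each library, and ACE and AGTR1 have overlapping ranges.

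Of the 7 members found, 6 passed the filter on low counts, and edgeR called 0 of them in CF against non-CF, where 0.349% of all genes tested were called. In that comparison 0 of the 6 had an unadjusted p under 0.05, beside 13.7% of all genes, and DESeq2 and limma-voom also gave 0 called and 0 under the unadjusted limit. Over all genes in CF against non-CF, DESeq2 called 2.33% and had 14.3% under the unadjusted limit, and limma-voom called 0.220% and had 13.1%. CF against WT gave 0 called beside 0.349%, and 0 under the unadjusted limit beside 14.1%. CF against HET gave 0 called beside a background of 0%, and 0 under the unadjusted limit beside 9.89%. In HET against WT, 0 were called beside 0.00478%, and 0 by edgeR had an unadjusted p under 0.05 beside 7.99%, while DESeq2 and limma-voom each called 0 and had 1 under it, ENPEP.

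The shares over all genes in the pairwise comparisons differed by tool. DESeq2 called 2.75% in CF against WT, 0.311% in CF against HET and 0.158% in HET against WT, with 15.2%, 10.5% and 8.49% under the unadjusted limit. For limma-voom these shares were 0.315%, 0% and 0.00478% called, and 14.1%, 9.12% and 7.91% under the unadjusted limit.

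The CF against non-CF fold change of pigs 7 to 11 and 19 to 23 was also tested against that of pigs 1 to 6 and 12 to 18. This difference in fold change was called in 0.0191% of genes and had an unadjusted p under 0.05 in 10.1%. Among the members it was under the unadjusted limit for AGTR1 and for ENPEP, at -0.46 (-0.88 to -0.03, edgeR adjusted p = 0.449), and neither was called.

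Directions were mixed among the 6 tested members. Against non-CF, 3 were higher and 3 lower in CF, counting ATP6AP2, at 0.00 after rounding, as higher, with a median log2 fold change of 0.00, and the median over all genes tested was also 0.00. In CF against WT 4 were higher and 2 lower with a median of 0.07, in CF against HET 3 and 3 with 0.02, and in HET against WT 3 and 3 with -0.03. These comparisons share libraries and are set side by side only.

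The intervals limit how large a difference these libraries could hide. The confidence intervals in CF against non-CF of all 6 tested members lay within a log2 change of 0.5 in either direction, and in the 3 pairwise comparisons all 6 lay within 1. ACE had 0.20 (-0.14 to 0.53) in CF against WT and 0.16 (-0.17 to 0.49) in CF against HET. AGTR1 had 0.04 (-0.22 to 0.30) and 0.13 (-0.13 to 0.40), and ATP6AP2 0.10 (-0.13 to 0.34) and -0.09 (-0.33 to 0.14). AGT, the least abundant member tested, kept the widest interval in CF against WT, -0.53 to 0.36. A Mann-Whitney U test of CPM between CF and non-CF gave exact p-values from 0.379 for ACE to 1.0 for AGT among the 7 members.

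**Figure D3:**
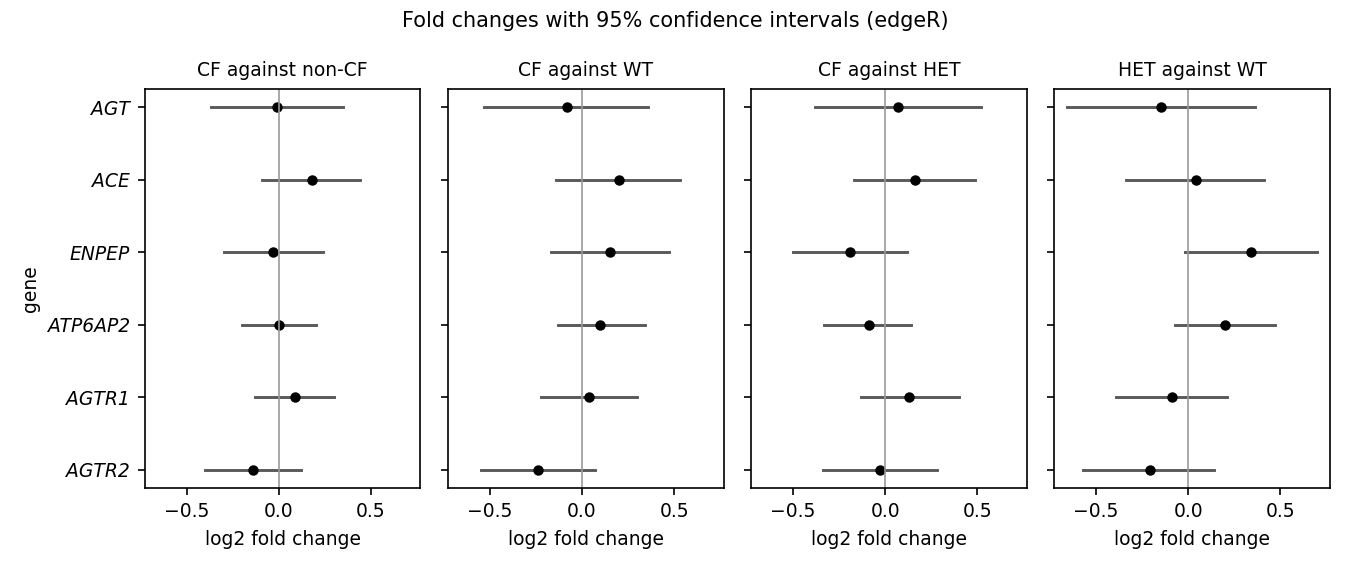
Log2 fold changes from edgeR (points) with 95% confidence intervals (lines) for 6 tested members in each of 4 comparisons, with the vertical line at no change. The intervals of these 6 genes include 0 in each comparison, and those of AGT are the widest.

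How the members varied together over the 23 libraries was described by the correlation of log2 CPM, without a test, since the libraries share their depth, their set of pig numbers and their mixture of cells. ENPEP and ATP6AP2 were the most alike pair of members (Pearson r = 0.88, Spearman rho = 0.81, n = 23). Their r was 0.80 without the 2 libraries farthest from the median of ENPEP, 0.79 within pigs 1 to 6 and 12 to 18, and 0.84 within the others. Here and below, the 2 farthest were chosen by the gene of the pair named first, so a library outlying in the other gene can remain.

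ACE was only loosely tied to ENPEP within a set, at r = 0.60 (rho = 0.61) over all libraries, 0.62 without the 2 farthest, but 0.38 and 0.28 in the first and second set. The receptors AGTR1 and AGTR2 had r = 0.55 (rho = 0.49), 0.40 without the 2 farthest, and 0.54 and 0.53 within the sets. ACE and AGTR2 ran in opposite directions over all libraries (r = -0.48, rho = -0.36), at -0.27 without the 2 farthest, 0.04 in the first set and -0.69 in the second, so that relation did not hold in both. AGT had an r of at most 0.38 with any other tested member over all libraries, in this case AGTR2 (0.40 and 0.31 within the sets). With AGTR1 it had 0.30 over all libraries (rho = 0.26), 0.28 without the 2 farthest by AGT, 0.56 in the first set and -0.18 in the second.

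Among all genes tested, those most like ATP6AP2 were EMC7 (r = 0.96), ATP6V1E1 (0.95), a subunit of the vacuolar proton pump, and PDHX (0.95). ATP6V1E1 was also among the 3 most like ENPEP (0.90), with EAF1 (0.92) and ALDH9A1 (0.90). For AGTR1 they were CSNK1G3 (0.83), FAM126A (0.81) and CCDC50 (0.78), and for AGTR2 KCTD12 (0.79), MDFIC (0.78) and TBX18 (0.76), a transcription factor of renal mesenchyme. ACE was most like the unnamed loci LOC110257226 (0.81) and LOC102165168 (0.81) and FYB (0.79), the last at 0.80 in the first number set and 0.29 in the second. AGT had no close match, with FAM129A (0.70), MAD2L1BP (0.70) and GPC6 (0.69) the nearest.

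ACE was quantified as a long transcript of 4166 nt and a short one of 2494 nt, whose reads overlap, so the split between them is an estimate. The long form made up nearly all of ACE, at 14, 24.4 and 39.1 TPM over the 23 libraries. The short form was lowest at 0.316, median 0.972 and highest at 2.37 TPM in CF, 0.621, 1.10 and 1.39 TPM in HET, and 1.38, 1.68 and 2.26 TPM in WT. Libraries labelled WT were thus at or above nearly all HET values for the short form, while CF libraries spanned the whole range. This was noticed after the values were seen and was not tested.

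ATP6AP2 and AGTR2 lie on the X chromosome. The Y-linked gene EIF1AY was at 15.1 to 26 CPM in 13 libraries (6 CF, 5 HET, 2 WT) and at 0 to 0.0961 CPM in the other 10 (5 CF, 1 HET, 4 WT), so its presence was spread unevenly over HET and WT. ATP6AP2 had a median of 140 CPM in libraries with EIF1AY RNA and 132 without, and AGTR2 24.6 and 21.5, with overlapping ranges. With EIF1AY as a covariate, CF against non-CF of ATP6AP2 was again 0.00 after rounding, and the directions of the other tested members in that comparison were as without it. In the pairwise comparisons, ACE in HET against WT and AGTR2 in CF against HET changed sign with this covariate (values in the closing section).

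The rest of the pathway was taken from fixed lists. Angiotensin-forming and -degrading enzymes and binding proteins held 17 genes, of which 14 were tested, while CMA1, CLTRN and MRGPRD were not matched and were not analysed here. In CF against non-CF, edgeR called 0, with 5 higher, 9 lower, 5 under an unadjusted p of 0.05 and a median log2 fold change of -0.05, beside 0.00 over all genes. Over all genes tested, 0.349% were called and 13.7% were under the unadjusted limit, which holds beside each list below in this comparison. DESeq2 called 0 with 5 under the unadjusted limit, limma-voom 0 with 6.

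DPP3, a cytosolic peptidase that degrades angiotensin II, was lowest at 15.7, median 21 and highest at 33.8 CPM in CF, 15.6, 33.2 and 49.6 CPM in HET and 27.3, 32.3 and 37.6 CPM in WT. All but 1 of the 11 CF libraries were below the non-CF median, with overlap of the ranges, and CF against non-CF was -0.49 (-0.82 to -0.16, edgeR adjusted p = 0.148). AGTRAP, which binds AGTR1 and promotes its internalisation, was 55.7, 76.5 and 97.0 CPM in CF, 56.6, 68.0 and 89.4 CPM in HET and 48.0, 56.7 and 75.7 CPM in WT. Its CF libraries were mostly above the WT ones, with 10 of 11 above the WT median.

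AGTRAP in CF against non-CF gave 0.24 (0.04 to 0.44, edgeR adjusted p = 0.243). Against HET it was 0.12 (-0.11 to 0.35, adjusted p = 0.750) and against WT 0.37 (0.14 to 0.60, adjusted p = 0.111), where DESeq2 alone called it, at 0.0384. The peptidases NLN and ANPEP, the other named genes of the list, had fold changes of -0.16 (adjusted p = 0.263) and 0.34 (adjusted p = 0.336) in CF against non-CF. For NLN, 1 of 11 CF libraries was above the non-CF median, and for ANPEP 8. NLN passed the adjusted limit within the second number set alone, at -0.32 (adjusted p = 0.0228), and was -0.02 in the first, while the test of that difference gave -0.30 (adjusted p = 0.373). Many more genes of the whole table were called in the second set alone than in the first or in all libraries (counts in the closing section). This holds beside each gene given for that set below. Such genes were also named for results over all libraries, which include that set.

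Of 15 genes of juxtaglomerular cells and their control, 13 were tested, and GUCY1A1 and GUCY1B1 were not matched. In CF against non-CF, edgeR called 0, with 6 higher, 7 lower, 4 under the unadjusted limit and a median of -0.01, while DESeq2 called 0 with 4 under that limit and limma-voom 0 with 3. NOS1, the neuronal nitric oxide synthase of the macula densa, was 13.1, 18.3 and 30.2 CPM in CF, 20, 23.5 and 29.9 CPM in HET and 19.9, 34.2 and 43.7 CPM in WT. No CF library reached the WT median, and the HET libraries lay between, overlapping both. The fold change of NOS1 was -0.48 (-0.83 to -0.14, edgeR adjusted p = 0.167) against non-CF and -0.70 (-1.07 to -0.32, adjusted p = 0.0776) against WT, where DESeq2 called it at 0.0177. Within the sets, NOS1 in CF against non-CF was -0.82 (adjusted p = 0.155) in the first and 0.00 (adjusted p = 1.0) in the second, and the test of that difference gave 0.82 (adjusted p = 0.323).

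PDE3B, a phosphodiesterase that limits cyclic AMP, was above the non-CF median in 11 of 11 CF libraries, at 50.6, 61.8 and 77.2 CPM against 45.0, 54.8 and 59.8 CPM in HET and 45.6, 48.8 and 65.5 CPM in WT. The ranges still overlapped, and its fold change was 0.23 (0.06 to 0.40, edgeR adjusted p = 0.189). GJC1, a connexin, had 0.13 (adjusted p = 0.339) and RBPJ, a Notch pathway factor, 0.13 (adjusted p = 0.346). Over the alternatives GJC1 ran from 0.06 to 0.19 and RBPJ from 0.04 to 0.21.

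All 15 genes of signalling and desensitisation after AGTR1 were tested. For CF against non-CF edgeR called 0, with 10 higher, 5 lower, 2 under the unadjusted limit and a median of 0.03, and DESeq2 and limma-voom each called 0 with 2 under it. RGS5, which shortens G protein signals in vascular mural cells, was 31.0, 37.0 and 51.7 CPM in CF, 27.8, 29.5 and 37.8 CPM in HET and 26.7, 32.0 and 42.2 CPM in WT. All 11 CF libraries were above the non-CF median although the ranges overlapped, with a fold change of 0.25 (0.08 to 0.41, edgeR adjusted p = 0.156). GNA13, a G protein subunit, had 0.14 (adjusted p = 0.259), the receptor kinase GRK2 -0.14 (adjusted p = 0.452) and the arrestin ARRB1 0.17 (adjusted p = 0.488). GRK2 ran from -0.18 to -0.08 over the alternatives. For ARRB1 the number sets gave -0.15 in the first and 0.58 (adjusted p = 0.0359) in the second, while the test of that difference gave 0.73 with an adjusted p of 0.0706.

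The kallikrein-kinin list, 7 genes of the peptides that ACE also cleaves, had the median farthest from 0 among the pathway lists. Between CF and non-CF, 5 were higher and 2 lower in CF with a median log2 fold change of 0.45, beside 0.00 over all genes. Against WT, 6 were higher and 1 lower with a median of 0.52, against HET 5 were higher and 2 lower with a median of 0.18, and in HET against WT all 7 were higher with a median of 0.30. The summed TPM of the list had medians of 252 in CF, 230 in HET and 210 in WT, and of 202 in the first number set and 288 in the second, so it was farther apart by pig number than by label. Of the 7, edgeR called 0 in CF against non-CF with 2 under the unadjusted limit, limma-voom 0 with 2, and DESeq2 called 2 with 3 under it, beside 2.33% called by DESeq2 over all genes.

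BDKRB2, the constitutive bradykinin receptor, was lowest at 8.93, median 13.9 and highest at 18.7 CPM in CF, 7.84, 9.22 and 15.6 CPM in HET and 6.97, 8.82 and 11.5 CPM in WT. Each CF library was above the WT median and 10 of 11 were above the non-CF median, while the ranges overlapped. BDKRB2 had 0.53 (0.24 to 0.81, edgeR adjusted p = 0.0755) against non-CF and 0.69 (0.35 to 1.03, adjusted p = 0.0612) against WT, and DESeq2 called it in both, at 0.0171 and 0.00558. BDKRB2 also passed edgeR's limit without CF pig 4 (0.58, adjusted p = 0.0352), without HET pig 13 (0.61, adjusted p = 0.0296) or without HET pig 15 (0.60, adjusted p = 0.0378), and in the other 20 of 23 fits with a library left out it did not. Over all 23 it ran from 0.48 to 0.61, with an adjusted p of up to 0.147. It was 0.41 (adjusted p = 0.603) in the first number set alone and 0.70 (adjusted p = 0.0152) in the second, and the test of that difference gave 0.29 (adjusted p = 0.781).

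KNG1, the kininogen from which bradykinin is released, was 118, 185 and 248 CPM in CF, 111, 125 and 196 CPM in HET and 68.2, 124 and 215 CPM in WT. Again 10 of 11 CF libraries were above the non-CF median with overlapping ranges, at 0.48 (0.19 to 0.78, edgeR adjusted p = 0.111), and DESeq2 called it at 0.0395. The carboxypeptidase CPN1 had 0.50 (adjusted p = 0.384) and the inducible receptor BDKRB1, at under 1 CPM in each library, 0.45 (adjusted p = 0.445). Over the alternatives CPN1 ran from 0.25 to 0.78 and BDKRB1 from 0.26 to 0.74. These 4 genes had a positive fold change in CF against non-CF under every alternative that gave a value. They were named for the smallest p of the list in this same comparison, and the alternatives reuse its libraries. The kept sign is therefore no separate support for a difference.

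The 7 genes of the mineralocorticoid arm, through which aldosterone acts on the distal nephron, gave 0 called by edgeR in CF against non-CF, with 5 higher, 2 lower, 2 under the unadjusted limit and a median of 0.03. DESeq2 and limma-voom also called 0, each with 2 under it. HSD11B2, which protects the receptor from cortisol, was 53.0, 70.6 and 94.6 CPM in CF, 52.9, 58.3 and 70.4 CPM in HET and 41.8, 57.8 and 73.3 CPM in WT. Most CF libraries, 9 of 11, were above the non-CF median, at 0.26 (0.06 to 0.46, edgeR adjusted p = 0.216), and the second number set alone gave 0.51 (adjusted p = 0.0118) and the first 0.03. The test of that difference gave 0.48 (adjusted p = 0.289). NR3C2, the receptor, had -0.14 (adjusted p = 0.293), and the sodium channel subunits SCNN1B and SCNN1A 0.19 (adjusted p = 0.418) and 0.21 (adjusted p = 0.432). NR3C2 ran from -0.22 to -0.07 over the alternatives.

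In the other comparisons edgeR called 0 genes of each of these 5 lists as well. In CF against WT, the counts under an unadjusted p of 0.05 were 3 for processing enzymes, 3 for juxtaglomerular control, 1 for AGTR1 signalling, 4 for the kinin list and 2 for the mineralocorticoid arm, beside 14.1% of all genes, and DESeq2 called AGTRAP, NOS1 and BDKRB2 and limma-voom 0, beside 2.75% and 0.315% of all genes. In CF against HET the counts in the same order were 2, 3, 3, 2 and 0, beside 9.89% of all genes, and in HET against WT 0, 2, 0, 0 and 0, beside 7.99%, with 0 called by DESeq2 or limma-voom in either. The median log2 fold changes of processing enzymes, juxtaglomerular control and AGTR1 signalling lay between -0.09 and 0.10 in these comparisons.

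The labelled tissue was checked against markers. Proximal tubule markers dominated, at a median summed TPM of 2833, followed by stroma at 909 (COL3A1 the most abundant, at 386), loop of Henle and distal tubule at 752 (UMOD, 186), vascular smooth muscle and mesangium at 401 (ACTA2, 144) and podocytes at 342. Erythroid genes summed to 316 (HBB, 304), endothelium to 258 (PLVAP, 60.7), collecting duct to 210 (ATP6V1B1, 80.7), neutrophils and mast cells to 52.6 (KIT, 25.7), macrophages and lymphocytes to 36.7 (CD163, 16.2) and nephron progenitors to 28.0 (CRYM, 20.3). Adrenal cortex had the lowest sum, at 3.92 (CYP11A1, 2.33), with CYP17A1 and NR5A1, 2 of its 6 quantified genes, under 0.1 TPM. Also under 0.1 TPM were MPO and CPA3, which are 2 of 11 neutrophil and mast cell genes, and CD3E, 1 of 8 macrophage and lymphocyte genes, while the neutrophil gene PRTN3 had a median of 2.67 TPM.

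These marker lists were compared between labels in the same fit. Between CF and non-CF, edgeR called 0 genes in each of the 12 lists, with 3 under the unadjusted limit for loop of Henle and distal tubule, 2 each for endothelium and erythroid cells, 1 each for proximal tubule, smooth muscle and mesangium, podocytes and collecting duct, and 0 for the others. CALB1, a calcium-binding protein of the distal tubule, had -1.40 (adjusted p = 0.0636) and RHAG, an erythroid gene, -0.41 (adjusted p = 0.0851), each the smallest p of its list. The loop of Henle and distal tubule list had 1 gene higher and 6 lower (median -0.20), and the erythroid list 2 and 5 (-0.12). CALB1 was 16.7, 50.4 and 127 CPM in CF, 63.1, 133 and 404 CPM in HET and 103, 150 and 320 CPM in WT, so the CF libraries lay mostly below the others. By DESeq2, 3 genes of the distal tubule list, CALB1 among them, RHAG and ATP6V1B1 were called, and limma-voom called 0, beside 2.33% and 0.220% over all genes.

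In the pairwise comparisons edgeR and limma-voom called 0 genes of each marker list. DESeq2 called 1 each of the proximal tubule (CUBN, at 0.0221), collecting duct (ATP6V1B1, at 0.00502) and distal tubule lists in CF against WT, beside 2.75% of all genes, and 0 in CF against HET and in HET against WT. All 7 erythroid genes were lower in CF against HET, with a median of -0.21 and 3 under edgeR's unadjusted limit, beside 9.89% of all genes, while in HET against WT 5 were higher and 2 lower.

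CALB1 passed edgeR's limit without CF pig 2 (-1.51, adjusted p = 0.0497), without CF pig 4 (-1.54, adjusted p = 0.0349), without HET pig 13 (-1.48, adjusted p = 0.0416) or without HET pig 15 (-1.47, adjusted p = 0.0396), and in the other 19 of 23 fits with a library left out it did not. Over all 23 it ran from -1.54 to -1.21, with an adjusted p of up to 0.122. It was -0.50 in the first number set alone and -2.29 (adjusted p = 0.00575) in the second, while the test of that difference gave -1.79 (adjusted p = 0.250).

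Among the other cell types, the named genes in CF against non-CF were as follows. ATP6V1B1 of the collecting duct had 0.38 (edgeR adjusted p = 0.103), CUBN of the proximal tubule 0.24 (adjusted p = 0.198), SYNPO of podocytes 0.49 (adjusted p = 0.189) and MYOCD of smooth muscle 0.50 (adjusted p = 0.347). The whole collecting duct list had 3 genes higher and 4 lower, with a median of -0.12. The proximal tubule list had 7 and 3 (0.08), podocytes 5 and 3 (0.07) and smooth muscle and mesangium 7 and 3 (0.16). KDR of endothelium had -0.26 (adjusted p = 0.149), at -0.48 (adjusted p = 0.0240) in the second number set and -0.07 in the first, and the test of that difference gave -0.42 (adjusted p = 0.319). FOXD1 of stroma had 0.14, COL2A1 of progenitors 0.62, PRTN3 of neutrophils 0.15, PTPRC of leukocytes -0.32 and HSD3B1 of adrenal cortex 0.27. The endothelial list had 5 genes higher and 5 lower (median -0.01), stroma 9 and 1 (0.01) and progenitors 4 and 2 (0.11). Neutrophils and mast cells had 3 and 5 (-0.09), macrophages and lymphocytes 2 and 5 (-0.11) and adrenal cortex 2 and 2 (0.03). The abundant markers ACTA2, COL3A1, PLVAP, CRYM, KIT, CD163, CYP11A1, HBB and UMOD had -0.10, 0.01, 0.26, -0.08, -0.06, 0.21, 0.07, 0.15 and 0.28, in that order.

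Several of these values moved when a library was left out or within a number set. With a library left out, ACTA2 ran from -0.35 to -0.01, PLVAP from 0.12 to 0.30, CRYM from -0.11 to -0.04 and KIT from -0.10 to -0.02. CD163 ran from 0.05 to 0.26, CYP11A1 from 0.01 to 0.12, UMOD from 0.16 to 0.38, COL2A1 from 0.34 to 0.78 and HSD3B1 from 0.17 to 0.34. PRTN3 ran from 0.03 to 0.32 over the alternatives. SYNPO was 0.20 in the first number set and 0.89 (adjusted p = 0.0509) in the second, and the test of that difference gave 0.68 (adjusted p = 0.489). PTPRC was -0.04 and -0.66 (adjusted p = 0.0598), with a difference of -0.62 (adjusted p = 0.524), and FOXD1 0.24 and 0.02, with a difference of -0.23 (adjusted p = 0.674). CD163 was 0.64 and -0.37, with a difference of -1.01 (adjusted p = 0.224). The part of these cell types in the levels of the renin-angiotensin genes was not tested.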

How the data were processed

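Kidney cortex RNA of 23 pigs was depleted of ribosomal RNA, prepared with a stranded total RNA kit and sequenced on an Illumina NovaSeq instrument. The authors quantified transcripts with kallisto on Sscrofa11.1, and deposited estimated counts and TPM for 77689 transcripts. The estimated counts are not all whole. Here both were summed per gene symbol, and counts were rounded. Genes were filtered with filterByExpr (20921 kept), scaled by TMM and tested with edgeR 4.0.16 (quasi-likelihood, Benjamini-Hochberg over all genes tested) in R 4.3.3, without covariates. CF was compared with non-CF in a fit of its own, and the pairwise contrasts came from a fit of all 3 labels. On simulated data, the share of 1.5-fold changes recovered was 73% in CF against non-CF, 58% in CF against WT and 48% in HET against WT. For 2-fold changes it was 97%, 87% and 88% in the same order. The false share was 5%, 4.6% and 7.5%. In this simulation the changed genes were all raised and were not low in counts, and the libraries had no sets of pig numbers or litters. Shares in the real libraries may differ. Replicates are separate pigs and were treated as independent. Any littermates among them could not be modelled, since the labels do not give the litter.

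The members, lists and sets of pig numbers were chosen with earlier results of these data known. Named genes were the members, CFTR, up to 4 genes of each pathway list with the smallest p in CF against non-CF, of each marker list the most abundant gene and the one with the smallest p, and the 3 genes most like each member. EIF1AY, unmatched genes and markers under 0.1 TPM are named besides. Pathway lists covered processing enzymes, juxtaglomerular control, AGTR1 signalling, kinins and the mineralocorticoid arm, and 12 lists covered cell types. CYP11B1 was not matched. Some genes counted in the lists are not reported here by name. Alternatives were DESeq2 1.42.0, limma-voom (limma 3.58.1), other scaling and filters, number sets, EIF1AY as a covariate, an exact Mann-Whitney U test (both sides) and each library left out.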

Additional observations from a re-analysis of the deposited data

Results flagged for a closer look

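In a check of 16 groups of 6 libraries for a value far from the others, 2 stood out, and chance alone sets apart about 1 in 20 groups. AGT in HET pig 21 was 6.88 CPM, while the next highest HET library had 4.10 CPM. MAS1 in HET pig 19 was 0.443 CPM, from 18 counts, while the next highest HET library had 0.151 CPM. Leaving out pig 21 gave a log2 fold change of AGT in CF against non-CF of 0.05, and MAS1 has no fold change.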

How the results depend on the processing

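Of 816 values of the 6 tested members under the alternatives, 39 had the opposite sign to the main fit at 2 decimals, the other 777 did not and kept their side of the adjusted limit, and 0 had an adjusted p under 0.05 (lowest 0.155). Levels relative to the mean of all libraries moved by less than 1 SD between CPM and TPM in 18 of 18 cases. A main value of 0.00 has no sign to change: ATP6AP2 in CF against non-CF ran from -0.14 to 0.12 over the alternatives, and from -0.05 to 0.04 with a library left out. The values that changed sign are given below, and for each the cause was not tested. Alternatives for genes of the lists were added after the data were seen.

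The count of called genes in CF against non-CF, 73, became 150 with the filter at CPM of 1, 148 with pig number set as a term, 45 with EIF1AY, 46 with limma-voom, 488 with DESeq2, 0 in pigs 1 to 6 and 12 to 18 alone, 473 in pigs 7 to 11 and 19 to 23 alone, and 17 (without HET pig 21) to 203 (without CF pig 4) with a library left out. CF against WT, 73, became 139 with upper-quartile factors, 140 with that filter, 186 with the set term, 33 in the first set, 576 with DESeq2 and 20 (without WT pig 12) to 203 (without CF pig 4). CF against HET, 0, became 4 with median-of-ratios factors, 4 with upper-quartile factors, 1 with no filter, 2 with that filter, 5 with the set term, 1 with EIF1AY, 535 in the second set, 65 with DESeq2 and 0 to 3 (without CF pig 2 or 5). HET against WT, 1, became 14 and 18 in the first and second set, 33 with DESeq2, 2 with only the libraries of both labels, and 1 to 4 (without HET pig 15). CFTR in CF against non-CF (log2 1.42, edgeR adjusted p = 0.0654) was called by DESeq2 (0.0187), by limma-voom (0.0194), without CF pig 4 (0.0467) or without HET pig 15 (0.0346), within 0.0187 to 0.308 over the alternatives. In CF against HET (0.66, edgeR adjusted p = 0.190) CFTR was called by DESeq2 (0.0194) and in the second set alone (0.74, adjusted p = 0.0408), within 0.0194 to 0.877.

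Log2 values changed sign as follows. In the first set alone, CF against non-CF gave AGT 0.05, AGTR2 0.02, ENPEP 0.19, ARRB1 -0.15 and COL3A1 -0.04, CF against HET AGTR2 0.18, ATP6AP2 0.03 and ENPEP 0.02, and HET against WT ACE -0.04 and AGTR1 0.01. In the second set alone, CF against non-CF gave AGTR1 -0.23, CD163 -0.37, GNA13 -0.01 and HBB -0.02, CF against WT AGT 0.15, ENPEP -0.15, ATP6AP2 -0.08 and AGTR1 -0.39, CF against HET AGT -0.19 and AGTR1 -0.11, and HET against WT AGT 0.34. The set term gave ACE -0.04 in HET against WT, EIF1AY gave ACE -0.06 there and AGTR2 0.03 in CF against HET, upper-quartile factors gave COL3A1 -0.01, and the medians of the Mann-Whitney test gave AGT 0.06. With a library left out, CF against non-CF ran from -0.09 to 0.10 for AGT, -0.09 to 0.03 for ENPEP, -0.03 to 0.10 for COL3A1 and -0.19 to 0.23 for HBB. CF against WT ran from -0.16 to 0.15 for AGT and -0.03 to 0.11 for AGTR1, CF against HET from -0.01 to 0.25 for AGT and -0.09 to 0.04 for AGTR2, and HET against WT from -0.33 to 0.08 for AGT and -0.02 to 0.14 for ACE. Among values that kept their sign with a library left out, CF against non-CF ran from 0.08 to 0.23 for ACE, 0.04 to 0.13 for AGTR1 and -0.19 to -0.06 for AGTR2. CF against WT ran from 0.10 to 0.29 for ACE, -0.32 to -0.09 for AGTR2 and 0.03 to 0.19 for ATP6AP2. CF against HET ran from 0.06 to 0.21 for ACE, 0.08 to 0.20 for AGTR1 and -0.15 to -0.03 for ATP6AP2. No paired analysis was possible because the labels do not give the litter and each pig number occurs once. Depth limited MAS1, and the sets hold as few as 2 libraries of a label.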
